A study of Mus musculus with 2 samples.

Results

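Liver-enriched transcription factors are the DNA-binding proteins that together switch on the genes of the hepatocyte. The set described here holds 8 of them, picked out by gene symbol as known liver factors, with earlier results of these data in view though no measured value enters the rule: Hnf4a, Foxa1, Foxa2, Foxa3, Cebpa, Cebpb, Onecut1 and Prox1. Each of the 8 had exactly 1 probe set that the platform annotation assigns to that gene alone, so they make up 8 of 8251 named genes and 8 of 12488 probe sets. Levels were read in total RNA of mouse liver, bought from a commercial supplier under 1 catalogue number and hybridised to 2 single-colour oligonucleotide arrays, 1 per sample. The titles call both samples liver, while their source field says spleen; the titles were followed here. The labels state no strain, age, sex, treatment or number of animals, and no other group exists, so values are described without a test between conditions. Nothing says that the 2 samples came from separate animals, so the spread between them may be technical.

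These proteins belong to several families. HNF4A is a nuclear receptor that binds DNA as a homodimer and keeps a broad set of hepatocyte genes active. The FOXA proteins carry a forkhead domain and can open closed chromatin early in liver development. C/EBP alpha and C/EBP beta are basic leucine zipper proteins: the former is tied to metabolic genes and to growth arrest of hepatocytes, the latter also to the acute phase response and regeneration. ONECUT1, also called HNF6, joins a cut domain to a homeodomain and acts in hepatocytes and in bile duct development. PROX1 is a homeodomain protein needed for hepatoblast migration and for the identity of lymphatic endothelium, and it can repress the activity of nuclear receptors such as HNF4A.

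The bases before the annotated starts show how differently these genes begin, and the starts of Hnf4a, Cebpa and Cebpb are printed because Cebpa and Cebpb gave the brightest signals of the set and Hnf4a, the nuclear receptor, has alternative starts. RefSeq (GRCm38.p6) gives 12 start windows for the 8 genes, of which 250 bases before each start were read. Foxa2 had 3 windows, Hnf4a and Prox1 had 2 each, and the other genes had 1 each. Hnf4a has an upstream start (chr2:163506607-163506856, plus strand) and a downstream one (chr2:163546905-163547154, plus strand); textbook accounts give the downstream promoter as the one of adult liver. Cebpa lies at chr7:35119043-35119292 and Cebpb at chr2:167688665-167688914, both on the plus strand. Capitals mark the motif ATCAATA, an ONECUT motif, in the upstream Hnf4a sequence, a CCAAT box, read on the other strand as ATTGG, in both Hnf4a sequences, a TATAAA box in Cebpa and the cAMP response core TGACG, or CGTCA on the other strand, in Cebpb.
Hnf4a upstream start: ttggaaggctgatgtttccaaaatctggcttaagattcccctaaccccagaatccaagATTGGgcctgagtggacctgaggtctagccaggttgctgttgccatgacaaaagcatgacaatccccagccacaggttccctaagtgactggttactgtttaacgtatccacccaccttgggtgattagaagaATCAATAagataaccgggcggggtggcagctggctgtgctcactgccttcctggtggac
Hnf4a downstream start: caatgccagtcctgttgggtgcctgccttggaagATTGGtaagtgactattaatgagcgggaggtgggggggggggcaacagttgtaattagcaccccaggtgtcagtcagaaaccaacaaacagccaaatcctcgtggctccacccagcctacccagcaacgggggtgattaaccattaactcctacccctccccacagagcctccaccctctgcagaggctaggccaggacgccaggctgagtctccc
Cebpa start: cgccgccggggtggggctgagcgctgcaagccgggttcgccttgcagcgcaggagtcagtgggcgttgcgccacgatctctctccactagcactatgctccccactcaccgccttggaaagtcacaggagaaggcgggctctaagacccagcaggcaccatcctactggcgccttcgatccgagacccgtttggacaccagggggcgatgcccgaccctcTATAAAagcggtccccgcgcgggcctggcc
Cebpb start: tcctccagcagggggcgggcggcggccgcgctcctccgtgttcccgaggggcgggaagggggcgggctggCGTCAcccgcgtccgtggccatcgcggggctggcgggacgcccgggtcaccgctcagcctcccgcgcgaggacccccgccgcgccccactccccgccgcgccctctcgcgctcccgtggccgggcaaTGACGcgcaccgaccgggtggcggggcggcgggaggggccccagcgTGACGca

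Both Hnf4a windows held CCAAT on the other strand, at bases 192 to 188 before the upstream start and 216 to 212 before the downstream one. The upstream Hnf4a window held ATCAATA at bases 59 to 53 before its start, a motif in 1.86% of all windows. A window of Foxa2 held this motif too, on the other strand at bases 214 to 208 before its start. In Cebpa, TATAAA stood at bases 30 to 25 before the start, the usual distance of a TATA box; 12.4% of windows held TATAAA somewhere. The Cebpb window had no TATAAA and was 81.6% G or C, against a median of 52.4% over all windows, and it held TGACG 3 times, where 17.8% of windows held it at all. All motifs were searched on both strands with exact letters: CCAAT (5 of the 12 windows, 33.8% of all windows), GGGCGG (9 of the 12, 32.7%), the forkhead motif TGTTTAC (1 of the 12, in Foxa1; 3.17%), the E-box CACGTG (1 of the 12, in Onecut1; 6.02%), the C/EBP motif TTGCNCAA (0 of the 12; 2.61%) and the HNF4 element CAAAGTCC (0 of the 12; 1.2%), beside TATAAA (4 of the 12), TGACG (2 of the 12) and ATCAATA (2 of the 12). Overlapping matches were each counted. A match is a description of the letters and not a site of binding, and the array holds 1 probe set for each of these 8 genes, so the starts were not told apart by it.

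The tissue label was checked first. All 9 measured hepatocyte markers were above background on both arrays, among them Alb, which encodes albumin, at 64626 on replicate 1 and 65800 on replicate 2. None of 9 lymphocyte markers was (1 was with lower thresholds), and their summed signal was 909.9 and 999.8, against 315951 and 335170 for the hepatocyte list. Background here means the 95th percentile of 115 measured genes listed as those of brain, testis, retina, lens or striated muscle. Whether any of them is also expressed in liver was not checked. The threshold was 482.7 for replicate 1 and 478.8 for replicate 2. Of these 115 genes 5 lay above it on both arrays (Ddc, Tnp1, Pvalb, Acta1 and Pcp2), a number that the percentile largely sets in advance. Tnp1, Pvalb and Pcp2 each had a second probe set that was not above it, while Ddc and Acta1 had 1 set each. A gene under the threshold is called not above background, not absent. Array signals depend on probe sequence, so the order of signals below places each probe set within its array and does not rank transcript numbers.

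Of the 8 factors, 5 were above background on both arrays: Cebpa, Cebpb, Hnf4a, Foxa3 and Foxa2. Over all 8251 named genes the share above background on both arrays was 29.5%. Onecut1, Foxa1 and Prox1 were not above it on either array. The median percentile of the 8 among all named genes was 80.7 on replicate 1 and 77.9 on replicate 2. Because each factor had a single probe set, no second set could check any of these values. Background genes with several sets entered by their brightest set, which raises the threshold against genes with 1 set. With a gene's sets averaged instead, the thresholds were 297.5 and 316.6, and the same 5 factors passed. The RNA is from whole tissue, so fewer cells of a type and less RNA per cell cannot be told apart in any of these levels.

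**Figure D1:**
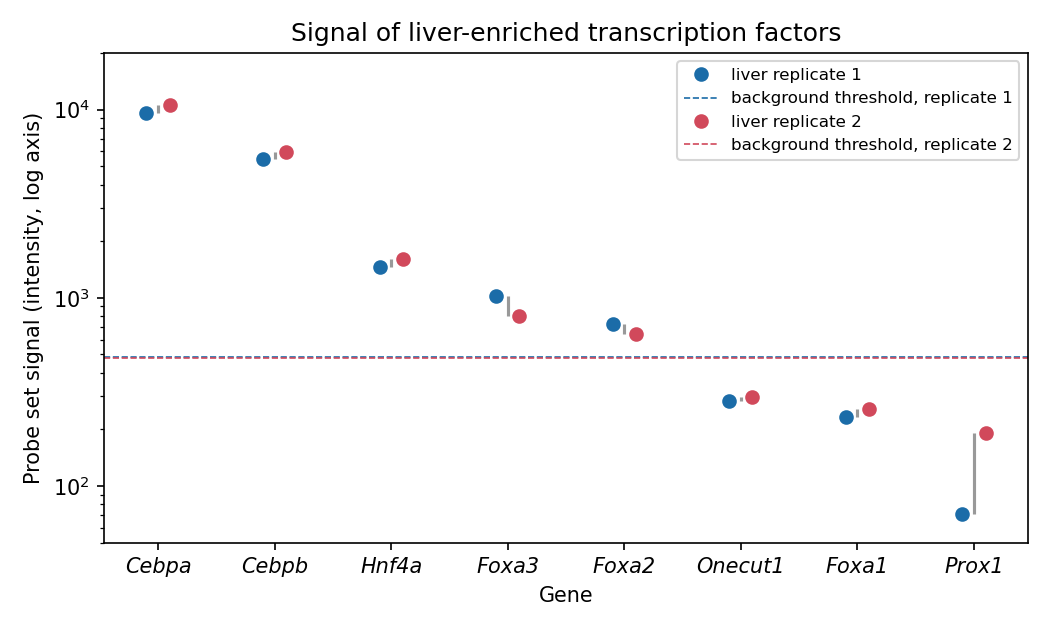
Signal of each of the 8 factors (log axis, intensity units) on liver replicate 1 (blue) and replicate 2 (red), joined by a grey line, with the background threshold of each array dashed. Cebpa and Cebpb stand at 5489 or more, Hnf4a, Foxa3 and Foxa2 lie between 645.5 and 1602, and Onecut1, Foxa1 and Prox1 stay under both thresholds.

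The C/EBP genes gave the brightest signals of the set. Cebpa, which encodes C/EBP alpha (probe set 98447_at), gave 9564 on replicate 1 and 10542 on replicate 2, a mean of 10053 ± 691.5 (SD, n = 2 arrays). That placed it at percentile 98.3 and 98.4 of all named genes and 19.8 and 22.0 times over the background threshold. Cebpb, which encodes C/EBP beta (92925_at), had a signal of 5489 and 5971, a mean of 5730 ± 341.0 (SD, n = 2), at percentile 96.7 and 96.9. The arrays did not overlap between these probe sets: the lower Cebpa value was above the higher Cebpb value. Among 177 genes, the 8 factors and the lists of other transcription factors and their relatives without the cofactor list, Cebpa had the brightest and Cebpb the second brightest signal on each array. The cofactor list held 1 gene with signals between them, Tle5. The third was Pcbd1, which encodes a pterin dehydratase that also acts as a transcription cofactor (5153 and 5196), and then came Nr1i3, the xenobiotic receptor CAR (3765 and 4402).

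Relatives of the C/EBP genes were measured in part. Of 6 measured genes of the C/EBP and PAR leucine zipper families 3 were above background, and 1 with the 99th percentile of the background genes as threshold. Tef, a PAR zipper factor with a daily rhythm in liver, gave 1525 and 1939. Cebpd, whose product C/EBP delta is induced in the acute phase, gave 813.0 and 879.2. Dbp, another rhythmic PAR factor, gave 607.6 and 673.8. All of these lay under both Cebpa and Cebpb in signal. Cebpg, a partner that lacks a strong activation domain, gave 227.8 and 313.3, and the stress gene Ddit3, whose product blocks C/EBP binding, gave 45.4 and 52.4; neither was above background.

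Hnf4a, the nuclear receptor of the set (92713_at), gave 1454 on replicate 1 and 1602 on replicate 2, a mean of 1528 ± 104.7 (SD, n = 2). It stood at percentile 88.3 and 89.1 and at 3.01 and 3.35 times the threshold. Both values lay above background and below every value of Cebpa and Cebpb. Among the 177 factors Hnf4a was 18th brightest on replicate 1 and 16th on replicate 2. Its paralog Hnf4g gave 18.4 and 77.4 and was not above background.

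The forkhead genes split. Foxa3, the FOXA gene that is most abundant in adult liver by textbook accounts (98324_at), had a signal of 1021 and 798.5, a mean of 909.7 ± 157.3 (SD, n = 2), at percentile 83.8 and 80.1. Foxa2, known for bile acid and fasting genes (93950_at), had a signal of 722.8 and 645.5, a mean of 684.2 ± 54.7 (SD, n = 2), at percentile 77.6 and 75.7. Foxa1, which overlaps with Foxa2 in function during liver specification (92697_at), had a signal of 233.5 and 257.0, a mean of 245.3 ± 16.6 (SD, n = 2), at percentile 50.6 and 54.1. The values of the 3 genes did not overlap between any of them, and only Foxa1 was under the threshold. Foxa3 and Foxa2 were 2.11 and 1.50 times the threshold on replicate 1 and 1.67 and 1.35 times on replicate 2. With a stricter threshold, the 99th percentile of the same background genes, neither was above it on both arrays. The count fell from 5 to 3 of the 8, where 14.3% of all genes were above. This stricter threshold, 1140 and 1024, lies between the signals of Tnp1 (1164.5 and 1043.2) and Pvalb (986.7 and 903.1). Their second sets gave 8.7 and 8.2 for Tnp1 and 67.3 and 14 for Pvalb, so it rests on few and uncertain sets.

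Other forkhead genes were mostly dim. Of 22 measured ones 3 were above background, or 13.6%, and the median percentile was 29.1. These were Foxo4 (739.8 and 797.8) and Foxo3 (678.8 and 537.7), which encode targets of insulin signalling, and Foxl1 (495.3 and 544.0), a gene of mesenchymal cells. Foxl1 lay just over the threshold. The dimmest, Foxc1, gave 2.90 and 2.30. With the stricter threshold 0 of the 22 were above background.

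The homeodomain genes of the set were not above background. Onecut1 (100737_at) had a signal of 284.3 and 297.4, a mean of 290.9 ± 9.26 (SD, n = 2), at percentile 55.7 and 57.7. Prox1 (102614_at) gave 70.8 on replicate 1 and 190.7 on replicate 2, a mean of 130.8 ± 84.8 (SD, n = 2), at percentile 24.3 and 46.2. Onecut1 repeated within a factor of 1.05 between the arrays although it was not above background, whereas Prox1 differed by a factor of 2.69. Under each of the 8 alternatives for background, scaling, probe sets and arrays, Onecut1, Foxa1 and Prox1 were not above background, and Cebpa, Cebpb and Hnf4a were. For Onecut1 this was a near miss in some of them. Its 284.3 and 297.4 stood against thresholds of 297.5 and 316.6 after averaging within genes, and of 309.1 and 312.6 without suffixed sets. Foxa1 and Prox1 lay further under these thresholds.

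In the order of signals, Cebpa, Cebpb, Hnf4a, Foxa3, Foxa2, Onecut1, Foxa1 and Prox1, the ranges over the arrays of 0 of the 7 neighbouring pairs overlapped. The order was made from these same values, and no such count was made for other genes, so nothing is read from it. The difference between arrays at a given signal was described by the SD of the log2 difference over the nearest probe sets in mean signal, 250 on either side. The gap from Onecut1 to Foxa1, a log2 of 0.25, was smaller than that SD of 0.45, and the gaps of the other 6 pairs were larger than theirs. That SD holds no difference in probe affinity between genes, so it places signals on the arrays and does not show whether transcript levels differ.

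**Figure D2:**
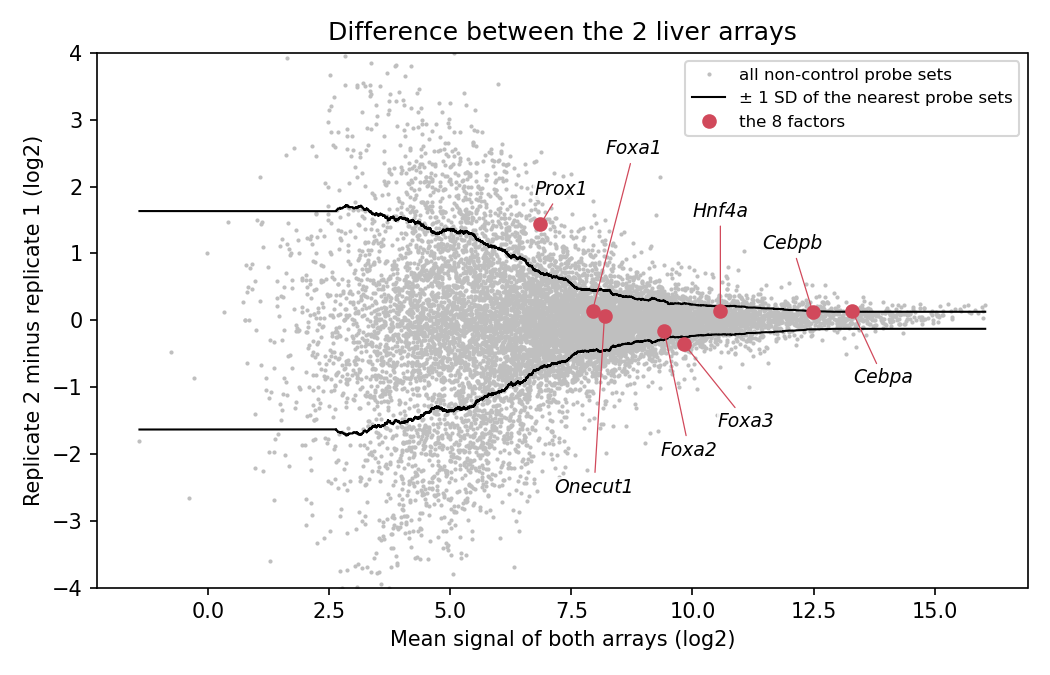
Difference between the arrays (replicate 2 minus replicate 1, log2, median difference removed) against mean log2 signal for all non-control probe sets (grey; 35 lie beyond the plotted range), with the 8 factors in red and black lines at 1 SD of the nearest probe sets. Prox1 lies at 1.44, outside a spread of 0.71, and Foxa3 at -0.35, outside 0.25; Cebpa is just past its line and the other 5 lie inside.

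Differences between the arrays were read for each member beside those of probe sets of like signal. After the median difference between arrays was removed, 6 factors were higher on replicate 2 and 2 were lower. Of the 169 other transcription factors measured, 86 were higher on replicate 2. The difference of 5 members lay within the spread, 1 SD, of probe sets of like signal. The share of all probe sets within their own spread was not counted, so closeness was not judged. Foxa3 was lower on replicate 2 by a log2 difference of -0.35, past a spread of 0.25. Cebpa was higher by 0.15, against a spread of 0.13, and Cebpb by 0.13, within its spread. Prox1 was higher by 1.44, against 0.71, and was the 1 member past 2-fold. Of the probe sets nearest Prox1 in signal 13.6% differed by over 2-fold, and over all non-control probe sets 18.3% did. None of the 7 members in the brighter 50% of probe sets passed 2-fold, where 2.09% of those sets did. Each side of these differences is a single array, so none could be tested.

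**Figure D3:**
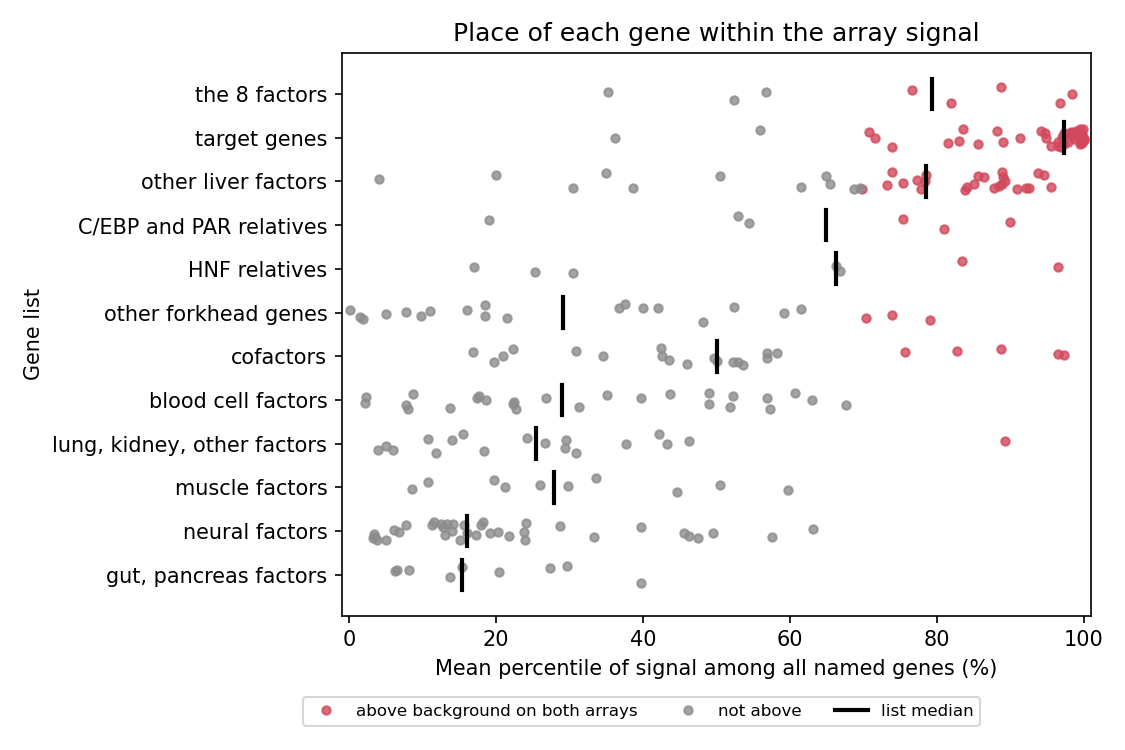
Mean percentile of signal over both arrays for each gene (points; red where above background on both arrays, grey otherwise) by gene list, with the list median as a black bar. The 8 factors have a median of 79.3, close to the 78.5 of other liver factors, and target genes one of 97.3; lists of factors of other tissues have medians from 15.3 to 29.0.

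Other transcription factors listed for liver were in the same part of the array as the 8. Of 36 measured ones 25 (69.4%) were above background on both arrays (14 with the 99th percentile threshold), with a median percentile of 78.5, beside 5 of 8 and 79.3 for the set described here. The brightest were Nr1i3, Srebf1, which drives lipid synthesis (3286 and 3407), and Atf5, a stress-responsive zipper factor (2834 and 2948). The dimmest was Nr2f1, an orphan nuclear receptor (20.3 and 3.80). Dbp and Foxo3 stand in this list and also among the C/EBP relatives and other forkhead genes, so they were counted in both. Partners of HNF4A and PROX1 were added after their values were seen: Nr1h4, the bile acid receptor FXR, gave 1355 and 1621, Nr0b2, the corepressor SHP that FXR induces, 1309 and 1033, and Nr5a2, a receptor that PROX1 can repress, 623.4 and 545.7. These 3 were above background. In the list of HNF relatives 2 of 7 were above it (1 with the 99th percentile threshold), Pcbd1 and Pcbd2 (974.3 and 993.7). Cux1, which shares the cut domain of ONECUT1, gave 426.4 and 459.4 and was not, and its second set gave 58.8 and 32.4.

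Of 23 measured coactivators and corepressors that work with such factors, 5 (21.7%) were above background, and 3 with the 99th percentile threshold. They were Tle5, a short member of the Groucho corepressor family (6943 and 6565), Pcbd1, Ncoa4 (1550 and 1463), and the chromatin remodelling ATPases Smarca4 (890.1 and 1015) and Smarca2 (763.5 and 560.5). The second probe set of Smarca4 gave 75.1 and 54.3, and that of Ncoa4 50.7 and 23.2. The deacetylase gene Sirt1 was the dimmest (15.1 and 85.4). Ppargc1a, the fasting-induced coactivator of HNF4A, gave 74.5 and 48.0; it was chosen after its values were seen.

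Factors that specify other tissues stood at the dim end. Of 100 measured factors of blood and lymphoid cells, nervous tissue, muscle, gut and pancreas, and lung, kidney, thyroid, skin and gonad, 1 was above background on both arrays, and the median percentile was 20.8. That gene was Nr5a1, the steroidogenic factor of adrenal and gonad, at 1695 and 1529. Its other 4 probe sets were not above background, the brightest of them at 166.5 and 169.6, so its place rests on 1 set of 5. By list, 0 of 26 blood and lymphoid, 0 of 37 neural, 0 of 10 muscle, 0 of 9 gut and pancreas, and 1 of 18 lung, kidney, thyroid, skin and gonad factors were above the threshold. The brightest of the first of these lists was Spib, a factor of B cells (358.8 and 592.6), which passed on replicate 2 alone; its second set (187.8 and 225.6) passed on neither. Of the 100 factors, 9 had a brighter mean signal than Onecut1, 9 a brighter one than Foxa1 and 28 a brighter one than Prox1, against 1 for Hnf4a, Foxa3 and Foxa2, and 0 for Cebpa and Cebpb.

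Most textbook target genes of HNF4A, FOXA, C/EBP and ONECUT1 were bright. Of 45 measured targets in the lists of these factors, 43 (95.6%) were above background, against 29.5% of all named genes. The median percentile of the 45 was 97.3. The lists share genes, and each was counted alone as well: 23 of 24 HNF4A targets, 12 of 13 FOXA targets, 24 of 24 C/EBP targets and 8 of 8 ONECUT1 targets. All 8 of these ONECUT1 targets also stand in the FOXA list, so the counts are not separate results. Several hepatocyte markers of the tissue check, among them Alb and Apoa1, are targets too. The brightest HNF4A target was Apoa1, the main protein of high-density lipoprotein (60573 and 69535). Tat, tyrosine aminotransferase, which stands in all 4 lists, gave 34694 and 34026. Cps1, which brings ammonia into the urea cycle and stands in the FOXA, C/EBP and ONECUT1 lists, gave 28143 and 26939. The exceptions were Mttp, the lipid loader of apolipoprotein B (297.0 and 265.1), and Afp, a fetal liver gene (125.7 and 124.6; 47.1 and 25.2 in its second set). The dimmest C/EBP target was the acute phase gene Saa3 (554.3 and 497.0). The dimmest ONECUT1 target was Cyp7a1, which sets the rate of bile acid synthesis and which PROX1 is known to repress (566.1 and 520.2). Targets were listed as textbook knowledge, with earlier results of these data known, and several are hepatocyte markers. Their high count is therefore no test of the factors, and no regulation was measured in these samples.

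Several of the 8 factors are also made by cells other than hepatocytes, and markers of those cells were read beside them. Macrophages also make C/EBP alpha and beta; of 9 macrophage markers 6 were above background (3 with the 99th percentile threshold), with summed signals of 11585 and 11836 on replicates 1 and 2, led by the complement gene C1qc (2541 and 2986). Fat cells make both proteins too; of 4 fat cell markers 1 was above (0 with that threshold), Lep (1160 and 854.4), whose second set gave 123.7 and 122.8, and the list summed to 1492 and 1167. Adipoq, which encodes adiponectin, gave 130.8 and 120.7. Bile duct cells make ONECUT1 and FOXA proteins; of 5 measured markers 1 was above (0 with that threshold), the widely expressed annexin Anxa4 (1051 and 940.2), with sums of 1357 and 1183, and the keratin Krt19 gave 87.0 and 58.9. Lymphatic endothelium makes PROX1; 0 of 8 endothelial markers were above on both arrays, with sums of 1636 and 1587, and the lymphatic receptor Flt4 (402.5 and 562.5) passed on replicate 2 alone, while its second set (166.9 and 109.2) passed on neither. The part of these cells in the signals of the 8 factors was not tested.

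Genes beside the 8 factors on their chromosomes were measured in part, a comparison chosen after the data were seen. Of the 16 nearest protein-coding neighbours in RefSeq (GRCm38.p6), 1 on each side, 7 were measured and 2 of these were above background. They were Irf2bp1, next to Foxa3 (693.0 and 685.3), and Sstr4, a somatostatin receptor gene next to Foxa2 (707.4 and 913.4). Pax1, on the other side of Foxa2, gave 98.7 and 78.8, and Mipol1, next to Foxa1, gave 81.8 and 24.2. Ptpn1, a phosphatase gene next to Cebpb, gave 392.3 and 469.1. Smyd2, next to Prox1, gave 75.6 on replicate 1 and 337.6 on replicate 2, and Rps6kc1 on its other side 49.2 and 66.1. With so few neighbours measured, nothing is read from their levels.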

How the data were processed

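Total RNA of mouse liver was measured in 2 samples of 1 group, 1 array each. The values the authors deposited are signal intensity on a linear scale, 1 per probe set; the mean after trimming 2% at each end was 500.5 on both arrays, and neither labels nor file state the software, scaling, summary or background steps, so they could not be repeated. Such steps change low signals most. Of 12488 probe sets 66 were controls, 10855 named 1 gene, 396 several and 1237 none in the platform annotation; 10839 matched RefSeq by gene identifier. A gene was its set with the highest mean log2 signal. Named genes are the 8 factors, each list's 3 highest and its lowest gene, genes above background in lists with up to 5 such genes, and relatives of the 8; exceptions are stated. The members and the 21 lists were chosen with earlier results of these data known. Paired and group tests do not exist here. Alternatives were quantile normalization, the mean of a gene's sets, no suffixed sets, 3 other thresholds, other percentile bases, no shift, log2(signal + 32), and single arrays. Steps were tested on simulated data in Python 3.11.15 with numpy 2.4.6, pandas 2.3.3 and matplotlib 3.10.9. Of relatives listed, Onecut2, Onecut3 and Cebpe were not analysed here.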

Additional observations from a re-analysis of the deposited data

How the results depend on the processing

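The count of factors above background on both arrays was 5 of 8 in 7 of 8 alternatives, and 3 with the 99th percentile as threshold, for genes and, where probe sets were not averaged, for probe sets alike. The share of all genes above background, 29.5% in the main setting, was 29.6% to 38.2% in those 7 and 14.3% with the 99th percentile. With each array alone it was 5. The median percentile of the 8 factors, 79.3, was 83.5 when a gene's probe sets were averaged, 80.8 without suffixed probe sets, 83.1 among all non-control probe sets, and 77.9 to 80.7 with 1 array left out. In the first 3 of these the signals of the 8 stayed as they were and only the genes or sets they were ranked among changed. Counts over small lists near the threshold moved: with the 99th percentile the other liver factors above it fell from 25 to 14. With lower thresholds up to 3 of 26 blood cell factors, 1 of 37 neural and 1 of 10 muscle factors passed, and 4 of 7 HNF relatives. In those settings 32.5% to 38.2% of all genes passed. No paired analysis was possible because there is 1 group. Having 2 arrays, 1 probe set per factor and no detection calls limits precision, most of all for Onecut1, Foxa1 and Prox1.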
